A study of Mus musculus with 4 samples.

Results

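The interferon response genes followed here were 44 of the 19354 genes listed for RNA-Seq of mouse hematopoietic stem cells (HSCs), and they were chosen by name, from interferon receptors and signaling factors to RNA sensors and interferon-induced genes. The rule used names and no expression value, although earlier results of these data were known when the list was made. Each of the 44 symbols stood on 1 row, and all 44 passed the filter on low values, a mean of 1 CPM (read counts scaled to the library's size) or more. The HSCs were sorted as LSK FLT3- CD48- CD150+ bone marrow cells from mice of 8 to 16 weeks of age on a C57BL/6 background. Every mouse carried Mx1-Cre, either with wild-type Id2 alleles (Id2+/+, 14 mice) or with both alleles floxed (Id2Fl/Fl, 15 mice, Id2Δ/Δ once deleted), and every mouse had received pIpC 2 weeks before. Cells were pooled across mice in 2 experiments, and 2 libraries were made for each genotype.

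pIpC is a synthetic double-stranded RNA that cells sense as a viral product and answer with type I interferon. Type I interferon binds the IFNAR1 and IFNAR2 receptor, which activates JAK kinases and the ISGF3 complex, which holds STAT2 and IRF9 and turns on genes with an interferon-stimulated response element (ISRE) in their promoters, while interferon-γ acts through IFNGR1 and IFNGR2 on genes with gamma-activated sequences (GAS). In HSCs type I interferon is known to drive dormant cells into the cell cycle for a short time. The Mx1 promoter is one of the interferon targets, and this is how pIpC switches on Cre, in HSCs and in other interferon-responsive cells alike. The libraries addressed whether the interferon genes stood at the same level in both genotypes 2 weeks after pIpC. All 4 libraries came after pIpC, so there was no untreated group and induction itself could not be tested. In pooled bulk RNA, fewer cells of a type and less RNA per cell cannot be told apart.

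The targeted gene, Id2, was read 93 and 98 times in Id2+/+ HSCs and 0 and 0 times in Id2Δ/Δ HSCs. Approximate depth was 14500000 to 18200000 reads a library, and reads could be recovered only for values below 32 CPM. Values of the 2 Id2+/+ libraries correlated across genes with r = 0.972, those of the 2 Id2Δ/Δ libraries with r = 0.942, and libraries of different genotype with r of 0.950 to 0.964, so the Id2Δ/Δ libraries were less alike than libraries across genotypes. The first Id2Δ/Δ library was the highest or the lowest of the 4 for 72.7% of the 44 interferon genes and for 63.4% of all 15895 genes tested. All 10 HSC markers had a row (Hlf and Procr among them), and their summed level was 4432 to 4517 CPM in Id2+/+ and 3077 to 3655 CPM in Id2Δ/Δ HSCs. By gene the HSC markers were split, with 3 higher and 7 lower in Id2Δ/Δ HSCs and a median log2 fold change of -0.22. All 8 neutrophil markers had a row and summed to 148 and 52.6 CPM in Id2+/+ replicates 1 and 2 and to 111 and 25.9 CPM in Id2Δ/Δ replicates 1 and 2. They were lower in the second library of each genotype and lower in Id2Δ/Δ than in Id2+/+ within each number, with 6 of 8 markers on the lower side and a median log2 fold change of -1.05. Among plasmacytoid dendritic cell markers, 1 of 6 had a row, at 0.544 to 1.25 CPM in Id2+/+ and 1.09 to 3.26 CPM in Id2Δ/Δ libraries, and Siglech had none. The part of other cells in the values below was not tested.

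The promoters of several of the genes show the element through which interferon acts. Of the 44 genes, 38 had a promoter in the RefSeq table of the GRCm38.p6 assembly (250 bases before the start site and 50 after it), and Dhx58, Ifi27, Mx1, Mx2, Oas2 and Usp18 had no entry. An ISRE core, spelled GAAANNGAA and searched on both strands, stood in 21 of the 38 promoters (55.3%) and in 2638 of 27025 promoters of all genes (9.76%). A GAS core, spelled TTCNNNGAA, which reads the same on both strands, stood in 14 of the 38 (36.8%) and in 9.55% of all promoters, and 8 interferon genes held both. The 2 spellings can overlap. The 4 stretches below come from the most abundant induced genes with an ISRE core before the start site, namely Ifitm2, Bst2, Gbp7 and Igtp, and that of Isg15 was added after its values were seen because it had the largest fold change. Each runs 5′ to 3′ along the gene's own strand, with the ISRE core in capitals, or adjoining cores that run together, and up to 30 bases on either side without passing the start site.
Ifitm2 (chr7:140955969-140956037, minus strand): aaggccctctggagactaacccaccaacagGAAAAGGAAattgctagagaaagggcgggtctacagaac
Bst2 (chr8:71537558-71537632, minus strand): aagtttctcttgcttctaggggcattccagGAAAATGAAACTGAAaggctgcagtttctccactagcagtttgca
Gbp7 (chr3:142530254-142530322, plus strand): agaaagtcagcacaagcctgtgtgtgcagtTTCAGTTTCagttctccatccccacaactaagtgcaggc
Igtp (chr11:58199492-58199555, plus strand): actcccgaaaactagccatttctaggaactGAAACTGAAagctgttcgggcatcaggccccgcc
Isg15 (chr4:156200846-156200926, minus strand): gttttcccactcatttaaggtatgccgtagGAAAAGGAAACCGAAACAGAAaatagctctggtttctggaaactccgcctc

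In these 5 stretches the core appears once in Ifitm2, Gbp7 and Igtp, as 2 overlapping copies in Bst2 and as 3 overlapping copies in Isg15, and in Gbp7 it is written on the opposite strand. By role, the core was found in 4 of 4 interferon-inducible GTPase genes, 4 of 5 antiviral effectors with a promoter, 2 of 3 Ifit genes and 2 of 3 Ifitm genes. It was not found in this window of any of the 4 receptor genes, nor of Pml or Sp100. The median log2 fold change between genotypes was -0.03 for the 21 genes with a core and -0.01 for the 17 without. A match is a description of the letters and says nothing of whether a factor was bound in these cells.

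Interferon genes spanned a wide range of levels in HSCs. Levels between genes are given as log2 CPM per kilobase of the longest annotated transcript, averaged over the 4 libraries. The median of the 44 genes was 4.39, against 3.20 for all 15895 genes tested. The highest were the Ifitm genes, encoding membrane proteins that block virus entry, with Ifitm3 at 9.28, Ifitm1 at 8.60 and Ifitm2 at 7.62, and Ifitm3 stood at the 99.6th percentile of all genes tested. They were followed by Irf1 (6.40), a transcription factor induced by interferon, by Ifi27 (6.15), an interferon-inducible mitochondrial protein gene, and by Bst2 (6.10), which encodes tetherin, a protein that holds budding virus at the cell surface. The ranges of the 4 libraries did not overlap among the 3 Ifitm genes, whereas that of Ifi27 overlapped with those of Irf1 and Bst2, so neighbours in this order did not differ beyond their spread. The range of Irf1 (6.22 to 6.58) lay just above that of Bst2 (5.92 to 6.21).

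**Figure D1:**
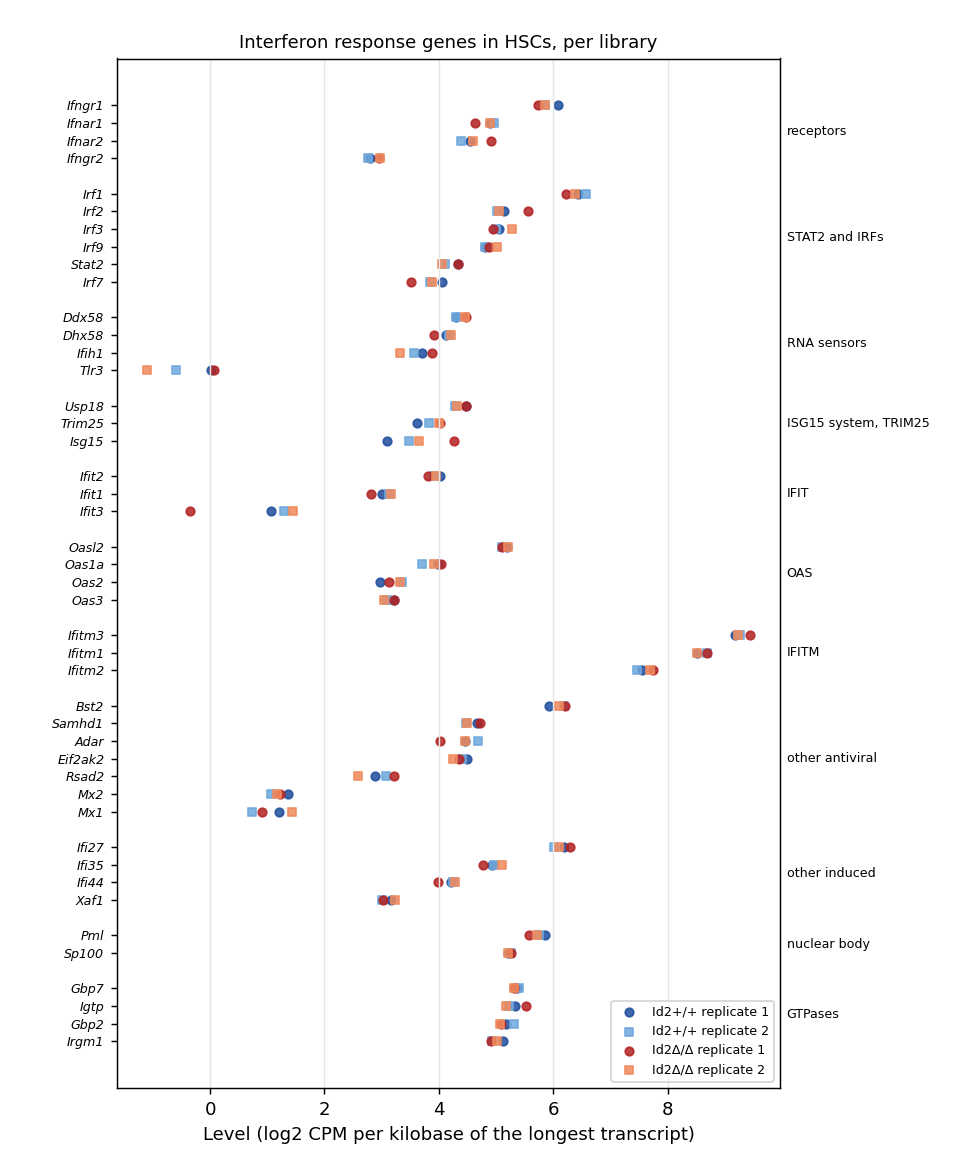
Level of each of the 44 genes (log2 CPM per kilobase of the longest transcript, horizontal axis) in the 2 Id2+/+ and 2 Id2Δ/Δ libraries, 1 point a library, with genes grouped by role and ordered by level within a role. Levels run from near 0 for Tlr3 to 9.28 on average for Ifitm3, and points of both genotypes lie on top of each other for most genes, with the widest spread in Ifit3, Tlr3 and Isg15.

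The lowest genes were Tlr3 at -0.41 log2 CPM per kilobase, Ifit3 at 0.86, Mx1 at 1.07 and Mx2 at 1.20. Tlr3 encodes the endosomal receptor for double-stranded RNA, and the others are classical interferon targets. The 4-library ranges of these lowest 4 genes were -1.10 to 0.07 for Tlr3, -0.34 to 1.45 for Ifit3, 0.73 to 1.43 for Mx1 and 1.07 to 1.36 for Mx2, so neighbours in this order did not differ beyond their spread. Mx1 and Mx2 stood at the 20.3rd and 21.9th percentiles of all genes tested. With no untreated group, these levels do not show whether an interferon response was ongoing or over. Of the 44 genes, 9 averaged less than 32 CPM and 35 at least 32 CPM.

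Comparing Id2Δ/Δ HSCs with Id2+/+ HSCs, none of the 44 interferon genes passed an adjusted p of 0.05 (limma, Benjamini-Hochberg over all genes tested), where 0 of the 15895 genes did (0%). At an unadjusted p under 0.05 there were 0 of the 44 genes and 742 of all genes (4.67%). The smallest unadjusted p among the 44 was 0.078 and the smallest adjusted p 0.910 (limma). With 21 genes on the higher side and 23 on the lower side in Id2Δ/Δ HSCs, the median log2 fold change was -0.007, against 0.011 for all genes tested. The median size of the fold change, without its sign, was 0.096 on the log2 scale for the 44 genes and 0.183 for all genes. Genes of low level scatter more, and at 32 CPM or more the same measure was 0.091 for 35 interferon genes and 0.120 for 7377 genes.

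How large a difference these libraries leave room for is given by the 95% interval of each fold change from limma. It lay within ±1 on the log2 scale for 40 of the 44 genes (90.9%; all genes 65.0%), and for 35 of the 35 at 32 CPM or more (all such genes 98.2%). The other 4, Isg15, Ifit3, Mx1 and Tlr3, had at most 258 reads in any library. The interval lay within ±0.5 for 27 of the 44 genes, where it did so for 4030 of the 15895 genes tested. At 32 CPM or more it did so for 27 of 35 interferon genes and for 3900 of 7377 genes. A p that misses the threshold does not show that the genotypes were equal, and with 2 libraries each, differences inside these intervals remain possible. The intervals do not give the smallest difference that could have been detected.

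**Figure D2:**
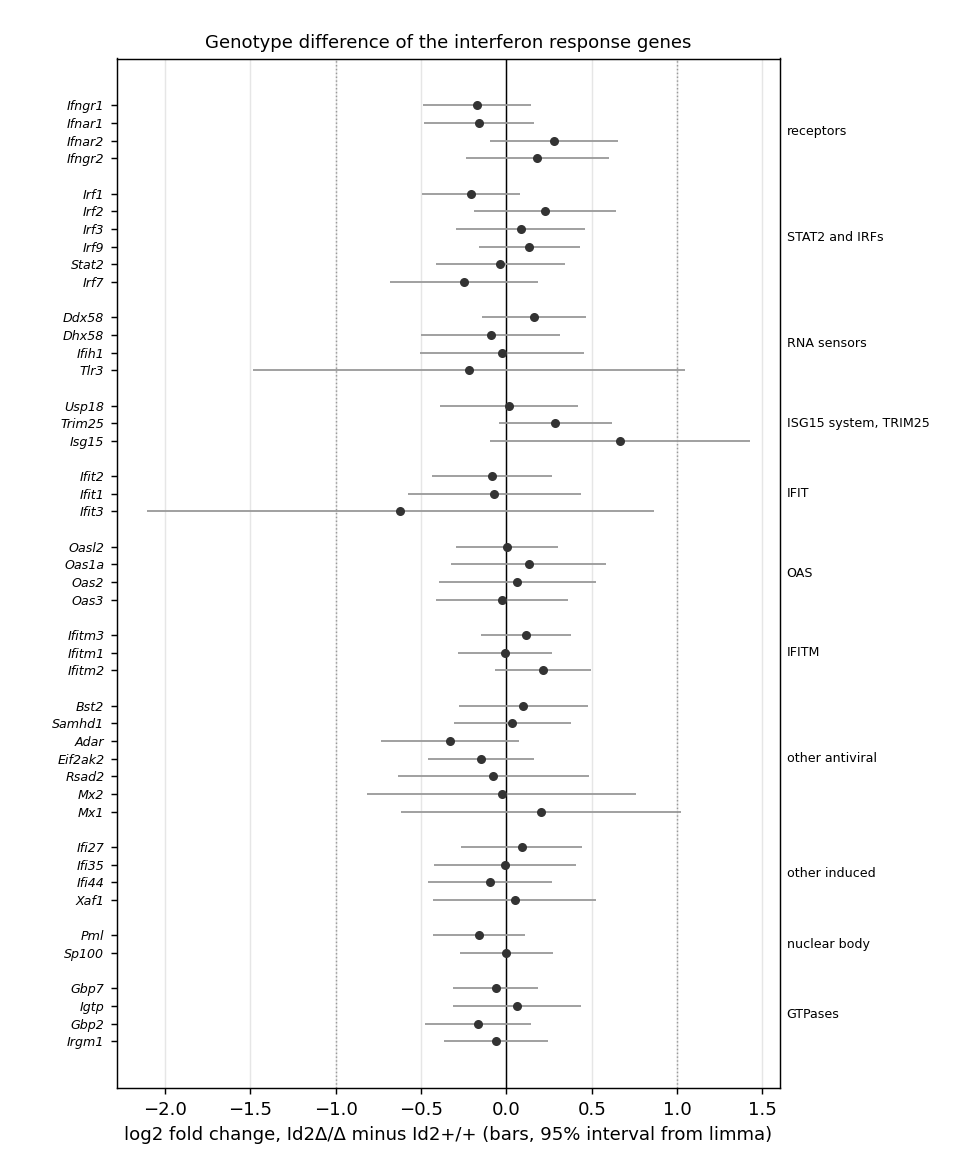
log2 fold change of Id2Δ/Δ against Id2+/+ HSCs (horizontal axis) for the 44 genes by role, with bars for the 95% interval from limma and dotted lines at -1 and 1. Every bar crosses 0, and only those of Isg15, Ifit3, Mx1 and Tlr3 pass a dotted line.

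Libraries of the 2 genotypes overlapped for 30 of the 44 genes. For 7 genes the 2 Id2Δ/Δ values exceeded the 2 Id2+/+ values, where 19.0% of all genes tested did so, and for 7 genes they were below them, where 15.8% of all genes did so. Separation of the genotypes was therefore about as frequent as in genes at large. The 7 above were Isg15, Trim25, Ifnar2, Ifitm2, Ifngr2, Ddx58 and Irf9, and the 7 below were Adar, Irf1, Ifngr1, Gbp2, Pml, Eif2ak2 and Gbp7.

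**Figure D3:**
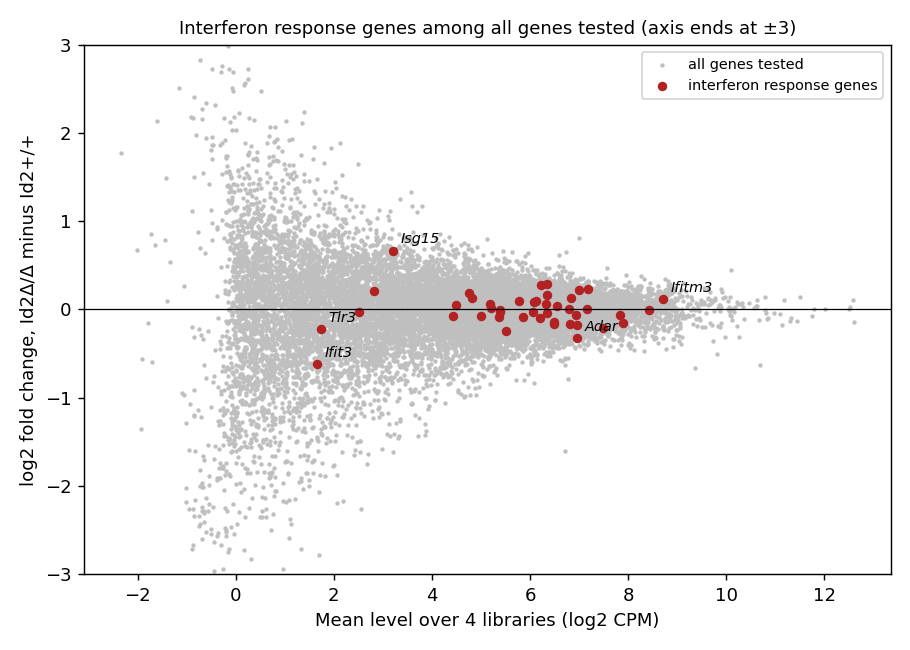
Mean level over the 4 libraries (log2 CPM, horizontal axis) against log2 fold change of Id2Δ/Δ against Id2+/+ HSCs (vertical axis) for all 15895 genes tested in grey, where the axis leaves out values past its ends, and the 44 interferon genes in red. The interferon genes sit inside the grey cloud at every level, with Isg15 at 0.67 and Ifit3 at -0.62 as the only ones past 0.5 in size.

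Among the receptors, 2 of 4 stood on each side of 0, and the receptor for each interferon had a subunit on either side. Ifnar2, a subunit of the type I receptor, had log2 CPM of 6.15 and 5.997 in Id2+/+ and 6.51 and 6.20 in Id2Δ/Δ HSCs, for a log2 fold change of 0.28 (SE 0.16, limma unadjusted p = 0.125). Both Id2Δ/Δ libraries were higher, but the second exceeded the nearest Id2+/+ library by less than the gap between the 2 Id2+/+ libraries, and the fold change was 0.12 without Id2Δ/Δ replicate 1 and 0.44 without Id2Δ/Δ replicate 2. Its partner Ifnar1 overlapped between genotypes, at 6.85 and 6.92 against 6.60 and 6.86, with a log2 fold change of -0.16. Ifngr1, the ligand-binding subunit of the interferon-γ receptor, read 7.17 and 6.94 in Id2+/+ against 6.82 and 6.94 in Id2Δ/Δ HSCs, for a log2 fold change of -0.17 (SE 0.14). The second libraries of both genotypes were all but equal here, and the fold change was -0.06 without Id2+/+ replicate 1 and -0.29 without Id2+/+ replicate 2. Ifngr2, the signaling subunit, had 364 and 393 reads in Id2+/+ and 508 and 551 reads in Id2Δ/Δ libraries, the latter being the deeper ones, for a log2 fold change of 0.18 (SE 0.18).

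The signaling and transcription factors had 3 genes on each side and a median log2 fold change of 0.03. Irf1 stood at 7.53 and 7.67 log2 CPM in Id2+/+ and at 7.32 and 7.47 in Id2Δ/Δ HSCs, a log2 fold change of -0.21 (SE 0.12, limma unadjusted p = 0.132), with the higher Id2Δ/Δ library just below the lower Id2+/+ one and a fold change of -0.13 without Id2Δ/Δ replicate 1. Irf9, the DNA-binding subunit of ISGF3, was at 6.76 and 6.76 in Id2+/+ and 6.82 and 6.97 in Id2Δ/Δ HSCs, for a log2 fold change of 0.13 (SE 0.13), or 0.06 without Id2Δ/Δ replicate 2 and 0.21 without Id2Δ/Δ replicate 1. Its ISGF3 partner Stat2 overlapped, with a log2 fold change of -0.04. Irf2, which counteracts IRF1 at interferon target genes, read 7.13 and 7.01 in Id2+/+ but 7.55 and 7.05 in Id2Δ/Δ HSCs, so that only the first Id2Δ/Δ library stood apart. Irf7, the factor that amplifies the making of type I interferon, had a log2 fold change of -0.25, and Irf3, which first responds to sensed RNA, of 0.09, with overlapping libraries in both.

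Of the sensors of double-stranded RNA, 1 of 4 was on the higher side. Ddx58, which encodes RIG-I, had 6.26 and 6.25 log2 CPM in Id2+/+ and 6.43 and 6.40 in Id2Δ/Δ HSCs, with replicates much closer to each other than the genotypes were and a log2 fold change of 0.16 (SE 0.13, limma unadjusted p = 0.254). Ifih1, encoding MDA5, the cytosolic sensor of long double-stranded RNA such as pIpC, overlapped between genotypes at 6.15 and 6.01 against 6.34 and 5.77 (log2 fold change -0.03). Dhx58, encoding LGP2, overlapped as well (-0.09). Tlr3 had 65 and 46 reads in Id2+/+ and 82 and 35 in Id2Δ/Δ libraries, with the first library of each genotype the higher one, and its log2 fold change was -0.22 with a 95% interval of -1.48 to 1.04.

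The 3 genes of the ISG15 system and TRIM25 all had positive log2 fold changes, with a median of 0.29, but none passed the test. Isg15 encodes a ubiquitin-like protein that is joined to other proteins after interferon. It had 94 and 134 reads in Id2+/+ and 258 and 172 reads in Id2Δ/Δ libraries, or 6.49 and 8.39 CPM against 14.5 and 9.48 CPM. Both Id2Δ/Δ libraries were higher, but the 95% counting intervals of Id2+/+ replicate 2 (7.01 to 9.90 CPM) and Id2Δ/Δ replicate 2 (8.09 to 11.0 CPM) overlapped. The log2 fold change of 0.67 (SE 0.33) was the largest of the 44 and its p the smallest (limma, unadjusted p = 0.078, adjusted p = 0.910), and leaving out 1 library at a time gave 0.36 to 0.97, the lowest without Id2Δ/Δ replicate 1. Trim25, a ubiquitin ligase that acts on RIG-I, read 6.10 and 6.31 log2 CPM in Id2+/+ and 6.50 and 6.48 in Id2Δ/Δ HSCs, for a log2 fold change of 0.29 (SE 0.14, limma unadjusted p = 0.079), or 0.18 without Id2+/+ replicate 1. Usp18, which removes ISG15 and dampens the type I receptor, overlapped at 5.29 and 5.11 against 5.30 and 5.14, a log2 fold change of 0.02.

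The Ifit genes, whose proteins bind foreign RNA, were 3 of 3 on the lower side with overlapping libraries in all. Ifit3 had 54 and 68 reads in Id2+/+ and 24 and 83 reads in Id2Δ/Δ libraries, so the genotype with the lowest library also had the highest. Its log2 fold change of -0.62 (SE 0.64) was -1.52 without Id2Δ/Δ replicate 2 and 0.28 without Id2Δ/Δ replicate 1, and it thus rested on 1 library. Ifit3b, a near-identical neighbour that can share reads with Ifit3, had 8 and 6 reads in Id2+/+ and 1 and 28 in Id2Δ/Δ libraries, and the sum of both genes was 62 and 74 against 25 and 111 reads. The low first and high second Id2Δ/Δ library appeared in both copies, but with reads possibly shared the second copy is no separate observation. Ifit3b averaged 0.69 CPM and did not pass the filter. Ifit1 and Ifit2 had log2 fold changes of -0.07 and -0.08.

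**Figure D4:**
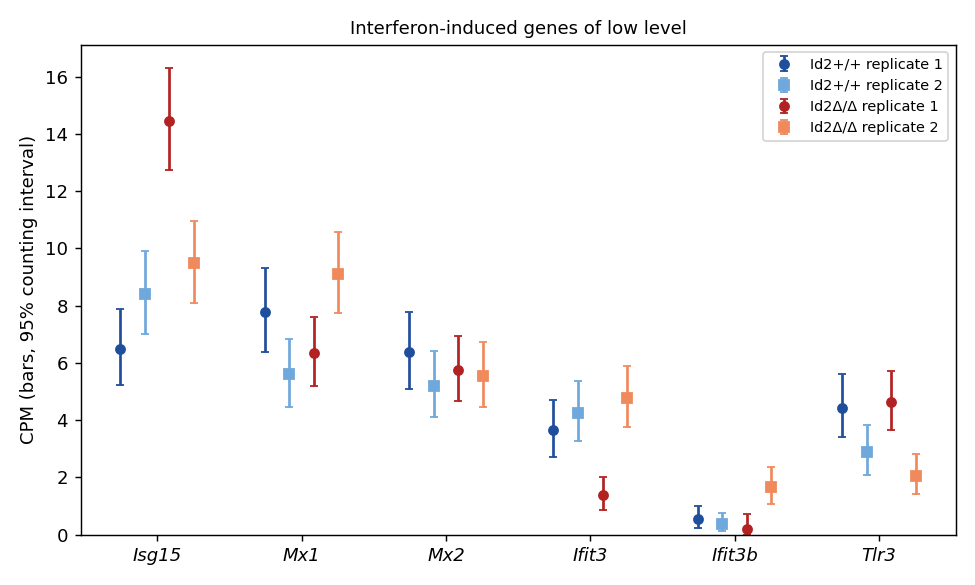
CPM of 6 interferon-induced or sensor genes of low level in each library (vertical axis, from 0), with bars for the exact Poisson 95% counting interval of the recovered reads. Isg15 is highest in the first Id2Δ/Δ library, where Ifit3 is lowest, and Mx2 is alike in all 4.

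Mx1 and Mx2 belong to a family of dynamin-like antiviral GTPase genes, and Mx1 lends its promoter to the Cre of these mice. Whether their own products are functional in these mice was not tested. Mx1 had 113 and 89 reads in Id2+/+ and 113 and 165 in Id2Δ/Δ libraries, with a log2 fold change of 0.21 and a 95% interval of -0.62 to 1.03. Mx2 had 92 and 83 reads against 103 and 98 reads, for a log2 fold change of -0.03 with an interval of -0.82 to 0.76. The second Id2Δ/Δ library was the highest for Mx1, with a counting interval that overlapped that of Id2+/+ replicate 1 (7.76 to 10.6 against 6.38 to 9.31 CPM), and the 4 libraries overlapped in Mx2.

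Among the other antiviral effectors, Adar, the gene of an RNA-editing enzyme that marks cellular double-stranded RNA as self, had 7.02 and 7.24 log2 CPM in Id2+/+ and 6.59 and 7.02 in Id2Δ/Δ HSCs. The second Id2Δ/Δ library was level with the first Id2+/+ library to 2 decimals, and the log2 fold change of -0.33 (SE 0.17, limma unadjusted p = 0.097) was -0.11 without Id2Δ/Δ replicate 1. Eif2ak2, encoding the double-stranded RNA-activated kinase PKR, read 6.61 and 6.51 in Id2+/+ against 6.46 and 6.36 in Id2Δ/Δ HSCs, a log2 fold change of -0.15 (SE 0.13). The genotypes were 0.05 apart at their nearest libraries, and the fold change was -0.20 to -0.10 on leaving out 1 library. Bst2 (0.10), Samhd1 (0.04), a nucleotide hydrolase that limits viral DNA synthesis, and Rsad2 (-0.08), encoding viperin, gave these log2 fold changes with overlapping libraries.

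The 3 Ifitm genes, the most abundant per kilobase, had standard errors of 0.11 to 0.12 on the log2 scale. Ifitm2, whose promoter stretch is shown above, had 6.94 and 6.85 log2 CPM in Id2+/+ and 7.14 and 7.08 in Id2Δ/Δ HSCs, and its log2 fold change was 0.22 (SE 0.12, limma unadjusted p = 0.115). The gap between genotypes was wider than the gap between replicates, but with a correction for transcript length (its longest transcript has 655 bases) the log2 fold change was 0.12. Ifitm3 had 8.61 and 8.70 against 8.88 and 8.67, for a log2 fold change of 0.12 (SE 0.11), or 0.03 with that correction and 0.01 without Id2Δ/Δ replicate 1. Ifitm1 had 8.34 and 8.51 against 8.50 and 8.33, with a log2 fold change of -0.006 and a 95% interval of -0.28 to 0.27. These 3 genes lie side by side and are alike in sequence, so reads could have been divided among them by the counting.

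Oligoadenylate synthetases make the activator of RNase L, and the 4 genes of the family among the 44 all overlapped between genotypes. Oasl2 stood at 6.84 and 6.75 log2 CPM in Id2+/+ and 6.74 and 6.86 in Id2Δ/Δ HSCs, a log2 fold change of 0.004 with a 95% interval of -0.29 to 0.30. Oas2 (0.06), Oas3 (-0.03) and Oas1a (0.13) gave log2 fold changes of similar size. Oas1a had 424 and 382 reads in Id2+/+ and 544 and 540 in Id2Δ/Δ libraries, and with its near-identical neighbour Oas1g added, the sum was 585 and 520 against 787 and 850 reads, or 41.0 and 33.2 against 44.4 and 45.0 CPM. On this sum the Id2Δ/Δ libraries were both above the Id2+/+ libraries, though the distance from the nearest was smaller than the gap between the 2 Id2+/+ libraries. Oas1b and Oas1c, named after their values were seen and not among the 44, had 121 and 158 reads against 246 and 240 reads and 133 and 147 reads against 302 and 201 reads. Like Oas1g, they were higher in both Id2Δ/Δ libraries, with log2 fold changes of 0.56 (SE 0.26, limma unadjusted p = 0.066) and 0.58 (SE 0.30, limma unadjusted p = 0.090).

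The interferon-inducible GTPases, which attack the vacuoles of intracellular microbes and answer mainly to interferon-γ, had 1 gene higher and 3 lower, with a median log2 fold change of -0.06. Gbp7, the highest of the 4 per kilobase, had 7.85 and 7.89 log2 CPM in Id2+/+ and 7.81 and 7.81 in Id2Δ/Δ HSCs, for a log2 fold change of -0.06 (SE 0.11, limma unadjusted p = 0.583). Although its genotypes did not overlap, the sign turned to 0.01 with the length correction, its longest transcript being 5614 bases. Gbp2 was at 6.50 and 6.65 in Id2+/+ and at 6.42 and 6.40 in Id2Δ/Δ HSCs, a log2 fold change of -0.17 (SE 0.13), or -0.09 without Id2+/+ replicate 2. Igtp (0.06) and Irgm1 (-0.06) gave log2 fold changes with overlapping libraries, and Igtp shares exons with Irgm2, so their reads cannot be fully separated.

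Pml and Sp100 encode the core proteins of PML nuclear bodies and are interferon targets. Pml had 8.02 and 7.92 log2 CPM in Id2+/+ and 7.73 and 7.88 in Id2Δ/Δ HSCs, a log2 fold change of -0.16 (SE 0.12, limma unadjusted p = 0.207), with the second libraries of both genotypes 0.04 apart and a fold change of -0.08 without Id2Δ/Δ replicate 1. Sp100 was the steadiest of the 44, at 7.14 and 7.19 against 7.19 and 7.15, for a log2 fold change of 0.0002 with a 95% interval of -0.27 to 0.27. Of the other induced genes, Ifi27 stood at 6.15 and 5.99 in Id2+/+ and 6.26 and 6.06 in Id2Δ/Δ HSCs (log2 fold change 0.09, or 0.02 with the length correction). Ifi35 (-0.007), Ifi44 (-0.09) and Xaf1 (0.05) also overlapped.

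For most of the 44 genes the fold change did not exceed the larger gap between libraries of the same genotype. A gap between single libraries also varies more than a fold change, which compares means of 2 libraries. The median gap between replicates was 0.15 on the log2 scale in Id2+/+ and 0.19 in Id2Δ/Δ HSCs over the 44 genes, and the fold change exceeded both gaps for 10 genes (22.7%), where it did so for 22.1% of all genes tested. Differences taken within each replicate number, a comparison chosen after seeing the data and given with no test, had the same sign for 22 of the 44 genes and for 51.1% of the 15895 genes tested. Isg15, for example, differed by 1.16 within replicates numbered 1 and by 0.18 within those numbered 2, and Ifit3 by -1.40 and 0.16. The first library was higher in both genotypes for 15 genes (34.1%, all genes 26.1%) and the second in both for 10 (22.7%, all genes 23.9%), and the libraries separated completely by number for 18 of the 44 genes (40.9%), where 32.9% of all genes did so. The replicate numbers are not stated to mark the 2 experiments.

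**Figure D5:**
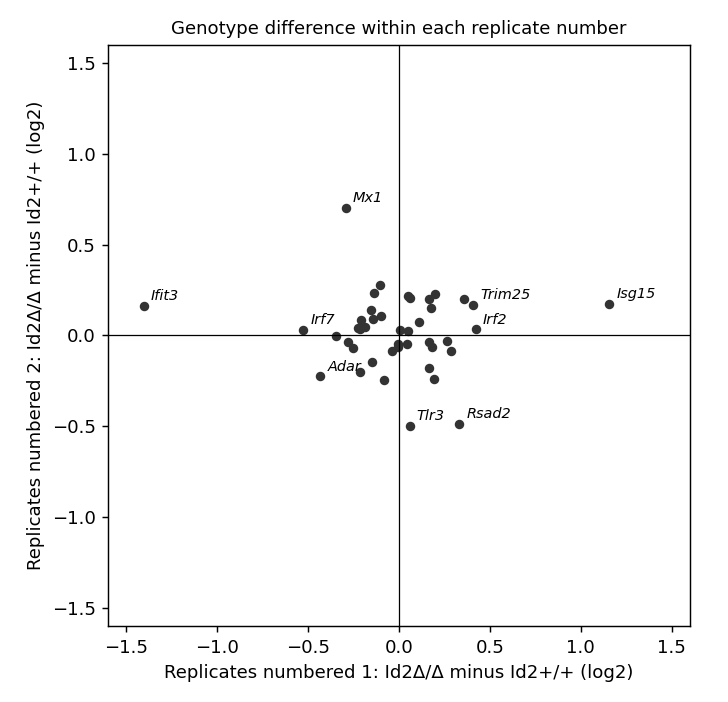
Difference of Id2Δ/Δ minus Id2+/+ (log2) for each of the 44 genes between the libraries numbered 1 (horizontal axis) and between those numbered 2 (vertical axis), with equal scales. Points fill all 4 quadrants around 0, with 22 of 44 genes of the same sign on both axes, and Isg15 and Ifit3 lie far out along the horizontal axis only.

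Other genes of the pathway were tested in the same fit. Of 106 further genes (ligands, other receptors, kinases, adaptors, GTPases and induced genes), 79 had a row and 75 passed the filter, and none of the 19 interferon ligand genes, Ifnb1 and Ifng included, had a row, so ligands were not analysed here. Of the 75, 0 passed an adjusted p of 0.05 (limma), 39 were on the higher and 36 on the lower side, and 2 (Ifi30 and Gvin1) had an unadjusted p under 0.05, against 4.67% of all genes.

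Ifi30, which encodes a lysosomal thiol reductase of antigen presentation, had 6 and 6 reads in Id2+/+ and 43 and 42 reads in Id2Δ/Δ libraries, a log2 fold change of 2.69 (SE 0.75, limma unadjusted p = 0.008, adjusted p = 0.910). The counting intervals of the genotypes did not overlap (0.13 to 0.76 CPM in each Id2+/+ library, 1.73 to 3.29 CPM over the Id2Δ/Δ libraries). Ifi30 averaged 1.41 CPM and passed the filter only through the Id2Δ/Δ libraries (2.42 and 2.46 CPM), with 0.378 CPM in each Id2+/+ library. It was also picked for its small p, so these values are description only. Gvin1, a very large interferon-induced GTPase gene, had 217 and 226 reads against 166 and 187 reads, a log2 fold change of -0.59 (SE 0.24, limma unadjusted p = 0.045), or -0.45 with the length correction. Oas1g had 161 and 138 against 243 and 310 reads, a log2 fold change of 0.60 (SE 0.27, limma unadjusted p = 0.06).

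Counting could also have mixed some of the 44 genes with their neighbours. In the GENCODE M21 annotation of GRCm38, 17 of the 44 genes share exonic bases with another gene model, on the same strand for Irf9 with Rnf31 and Igtp with Irgm2 and on the other strand for Adar with Chrnb2 and Irf3 with Bcl2l12. Whether the counting used strand is not given in the sources used here, and reads of such genes are uncertain to that extent.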

How the data were processed

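RNA-Seq was done on HSCs of 2 genotypes, with 2 libraries each, of pooled mice. The authors deposited 1 table of normalized log2 values for 19354 genes. Its log2 values sum to 999980 to 999996 CPM per library after back-transformation and share 1 distribution across libraries (median 3.92), as after quantile normalization. The unit was therefore read from the values. The submitters' processing notes name CASAVA 1.8.4, Trimmomatic 0.30, TopHat2 2.0.8, RSEM and STAR and the builds mm9 and NCBIM37, with no role or order, and how multiply mapped reads were counted is not given in the sources used here. Quantile normalization removes any difference between libraries in the overall distribution.

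Genotypes were compared with limma 3.58.1 in R 4.3.3 (lmFit, then eBayes with its trend option, a two-sided test of genotype alone) on the 15895 genes averaging 1 CPM or more, with Benjamini-Hochberg adjustment over all of them. Below 32 CPM, distinct values were ranked to recover whole reads (with a pseudoread of 0.5), which gives approximate depth and exact Poisson intervals that cover counting error only. A floor of 3 reads corresponded to 0.165 to 0.207 CPM. Nothing says that the libraries held separate animals' cells beyond the 2 experiments, so p-values rest on the spread between these libraries, which may be technical. The eBayes step also draws each gene's variance toward that of genes of similar level. Standard errors, intervals and p-values therefore do not reflect a gene's own replicate spread alone.

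Transcript lengths and overlaps came from GENCODE M21 by Ensembl identifier (99.7% of genes matched, 82.0% at the same version), and promoters from RefSeq. No coordinate was converted between builds. The members and lists were chosen with earlier results of these data known. Fold changes and tests are named for members whose genotypes did not overlap, the 5 largest fold changes, the 5 most abundant members, and the 3 other pathway genes of smallest p; other members are given as values. The marker lists covered HSC, neutrophil, erythroid, B, T and NK, monocyte, plasmacytoid dendritic and megakaryocyte genes and those the gate leaves out. The replicate numbers are not stated to mark an experiment, so they did not enter the comparison. Over all genes tested, same-numbered libraries hardly deviated together (correlation 0.06). Alternatives were a pseudocount of 1, filters of 0 and 10 CPM, median-ratio scaling, no intensity trend, an adjusted p of 0.1, a spline correction for transcript length (5 degrees of freedom), a replicate block and leaving out each library. Scripts were tested on simulated data.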

Additional observations from a re-analysis of the deposited data

How the results depend on the processing

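No interferon gene was called under any alternative run, and across all genes 1 gene was called with the replicate block and 1 with the length correction and block together (an alternative added after seeing the data), none otherwise. The count of the 44 genes at an unadjusted p under 0.05 (limma), 0 as reported, was 1 with the replicate block (Adar), 1 with the length correction and 1 with both (Trim25), and 0 to 6 on leaving out 1 library, with 6 without Id2Δ/Δ replicate 2 (Irf2, Adar, Ifit3, Ifnar2, Isg15 and Ifitm3). For the other pathway genes this count, 2 as reported, was 1 with a pseudocount of 1, 0 with a filter of 10 CPM (which removes Ifi30), 1 with the replicate block, 1 with the length correction, 1 with both, 3 without the intensity trend (Oas1b in addition), and 1 to 15 on leaving out 1 library, with 15 without Id2Δ/Δ replicate 2. Leaving out 1 library leaves 1 library in that genotype, and the share of all genes under 0.05 in those fits is not given here. Whether interferon genes passed more often than other genes in them was therefore not tested, and those counts are description only. The median log2 fold change, -0.007 as reported, was -0.037 to 0.041 on leaving out 1 library and 0.033 over the libraries numbered 2 alone, a choice made after seeing the data. Of 250 alternative values for 18 named genes, 241 had the sign reported and 9, in 5 genes, had the other. The sign changed in Gbp7 with the length correction (0.0145, and 0.0145 with the block as well), and on leaving out 1 library in Ifitm1 (-0.0926 to 0.0804), Ifi27 (-0.00982 to 0.192) and Ifit3 (-1.52 to 0.28), as well as in Ifitm1 over the libraries numbered 1 alone (0.16) and in Ifitm3 (-0.03) and Ifit3 (0.16) over those numbered 2 alone. The cause of these changes was not tested. With 2 libraries a genotype, the intervals of 4 of the 9 genes under 32 CPM reach past ±1 on the log2 scale.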

Other observations

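Values of the remaining marker lists are given here. Summed levels over the 4 libraries ran from 26.4 to 39.1 CPM for erythroid markers (6 of 7 with a row), 33.6 to 51.0 CPM for B cell markers (2 of 6, with Cd79a and Pax5 among those without a row), 42.6 to 59.8 CPM for T and NK cell markers (2 of 6, with Cd3e without a row), 186 to 250 CPM for monocyte and macrophage markers (6 of 7), 323 to 410 CPM for megakaryocyte markers (5 of 5) and 57.1 to 68.4 CPM for genes of cells that the gate leaves out (3 of 4). The megakaryocyte sum was 323 and 339 CPM in Id2+/+ and 398 and 410 CPM in Id2Δ/Δ HSCs, with 4 markers higher and 1 lower. No marker gene passed an adjusted p of 0.05 (limma).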
